A study of Homo sapiens with 16 samples.

Results

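Glycolysis and hypoxia-response genes were followed in RWPE1, an established line of basal-type human prostate epithelium immortalised with a papillomavirus. The set comprised 39 symbols listed for their role in these pathways. Of these, 38 were matched to rows of the expression table, out of 20166 symbols in all, and PKM was not analysed here. They fell into 17 glycolytic enzymes, 4 glucose and lactate transporters, 2 pyruvate dehydrogenase kinases, 4 genes of hypoxia-inducible factor (HIF) and its oxygen sensors, and 11 HIF targets outside glycolysis. RWPE1 cells carried a wild-type construct for over-expression (6 libraries, replicates 13 to 18), its T164A mutant (4 libraries, replicates 91 to 94) or an empty, altered pTRIPZ vector (6 libraries, replicates 1 to 6). pTRIPZ is a lentiviral vector, and the labels state neither an induction nor a harvest time nor whether a line is 1 clone. Poly-A RNA was sequenced in every library at an estimated 12300000 to 19200000 reads. All values are the authors' deposited log2 expression values, on which a difference of 1 is a 2-fold change. Means are given with the SD over libraries, and differences with the limma standard error (SE).

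Glycolysis splits glucose into pyruvate in the cytosol, and lactate dehydrogenase turns pyruvate into lactate when it is not passed on to the mitochondria. When oxygen is scarce, the hydroxylases encoded by the EGLN genes no longer mark HIF alpha subunits for destruction. HIF then binds short DNA elements and raises transcription of most glycolytic genes, together with genes for blood vessel growth, collagen modification, acid balance and mitochondrial clearance. HIF alpha protein is controlled largely after transcription, so HIF1A RNA is not a readout of HIF activity. Normal prostate epithelium is known for secreting citrate and for a metabolism that is shifted again in prostate cancer.

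The libraries did not resemble each other in cell identity. All 13 basal epithelial markers, KRT5 and TP63 among them, had means above the level of 3 reads in every group. All 13 were lower in wild-type than in vector libraries (median difference -0.60). The log2 of their summed level was 17.4 to 17.8 in wild-type, 16.9 to 17.2 in T164A and 18.1 to 18.3 in vector libraries. All 12 prostate luminal markers were higher in wild-type than in vector libraries (median at least 7.90, with group means below 3 reads set to that level), with summed levels of 15.8 to 16.8 in wild-type, 10.8 to 10.9 in T164A and 9.16 to 9.34 in vector libraries. KLK2, KLK3, KLK4 and HPN averaged below 3 reads in vector libraries, and KLK2, KLK3, TMPRSS2 and HPN in T164A libraries. All 8 general epithelial genes were lower in T164A than in vector libraries (median -1.97) and all 8 non-epithelial genes were higher (median 4.01), among them VIM, CDH2 and NCAM1, the last of which averaged below 3 reads in wild-type and vector libraries. Wild-type replicate 14 and T164A replicate 93 stood apart from the rest of their groups, and so did vector replicates 1 and 2 together. Between these 2 vector libraries, reads over 547 genes differed with a chi-square of 4.34 for each degree of freedom, and between either and another vector library with 39.4 to 68.7. Vector replicates 1 and 2 had a summed non-epithelial level of 12.3, against 11.6 to 11.7 in the other vector libraries. That sum was mostly FN1, with a vector mean of 11.68, and VIM came next at 7.54. Replicate 14 had the lowest luminal sum of its group (15.8, against 16.4 to 16.8). In bulk RNA, a change in the share of a cell type and a change of RNA per cell cannot be told apart, and construct and cell identity cannot be told apart in any comparison here.

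Among the 38 genes, wild-type libraries had 21 at a higher and 11 at a lower level than vector libraries at a limma Benjamini-Hochberg adjusted p under 0.05 over all symbols, which is the meaning of called below. Over all symbols the shares were 21% higher and 24.5% lower. Many symbols are hardly expressed and seldom called. Of the 13830 symbols with a mean log2 value of at least 3, fitted alone, 3886 were higher and 5023 lower. The median difference of the 38 genes was 0.23, against -0.05 over all symbols. In T164A libraries 22 were higher and 11 lower than in vector libraries, against 37.1% higher and 27.2% lower over all symbols. The median was 0.63 against 0.11. Of the 13830 symbols, 6471 were higher and 5087 lower in T164A libraries. The split of all calls in that comparison was 7487 higher and 5490 lower symbols, and under quantile normalization 6201 higher and 6940 lower. Compared directly with T164A libraries, wild-type libraries had 13 genes higher and 15 lower, against 26.7% higher and 35.1% lower over all symbols. Of the 13830 symbols, 4843 were higher and 6207 lower in this comparison. All calls there were 5387 higher and 7070 lower, and under quantile normalization 6427 higher and 6074 lower. The same 6 vector libraries serve wild type and T164A, so those results are not independent of each other. Without wild-type replicate 14, wild-type libraries had 21 genes above and 10 below the vector, and without T164A replicate 93, T164A libraries had 23 above and 10 below it. Without vector replicates 1 and 2, an alternative chosen after seeing the data, wild-type libraries had 21 above and 9 below and T164A libraries 23 above and 10 below. With libraries close to each other averaged first, which left 7 values in all, wild-type libraries had 14 above and 5 below, and T164A libraries 22 above and 10 below. In that fit wild-type replicate 14 had the same weight as the mean of the other wild-type libraries. The same held for T164A replicate 93 and the mean of the other T164A libraries. Vector replicate 5 alone weighed as much as the mean of vector replicates 1 and 2 or the mean of vector replicates 3, 4 and 6.

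**Figure D1:**
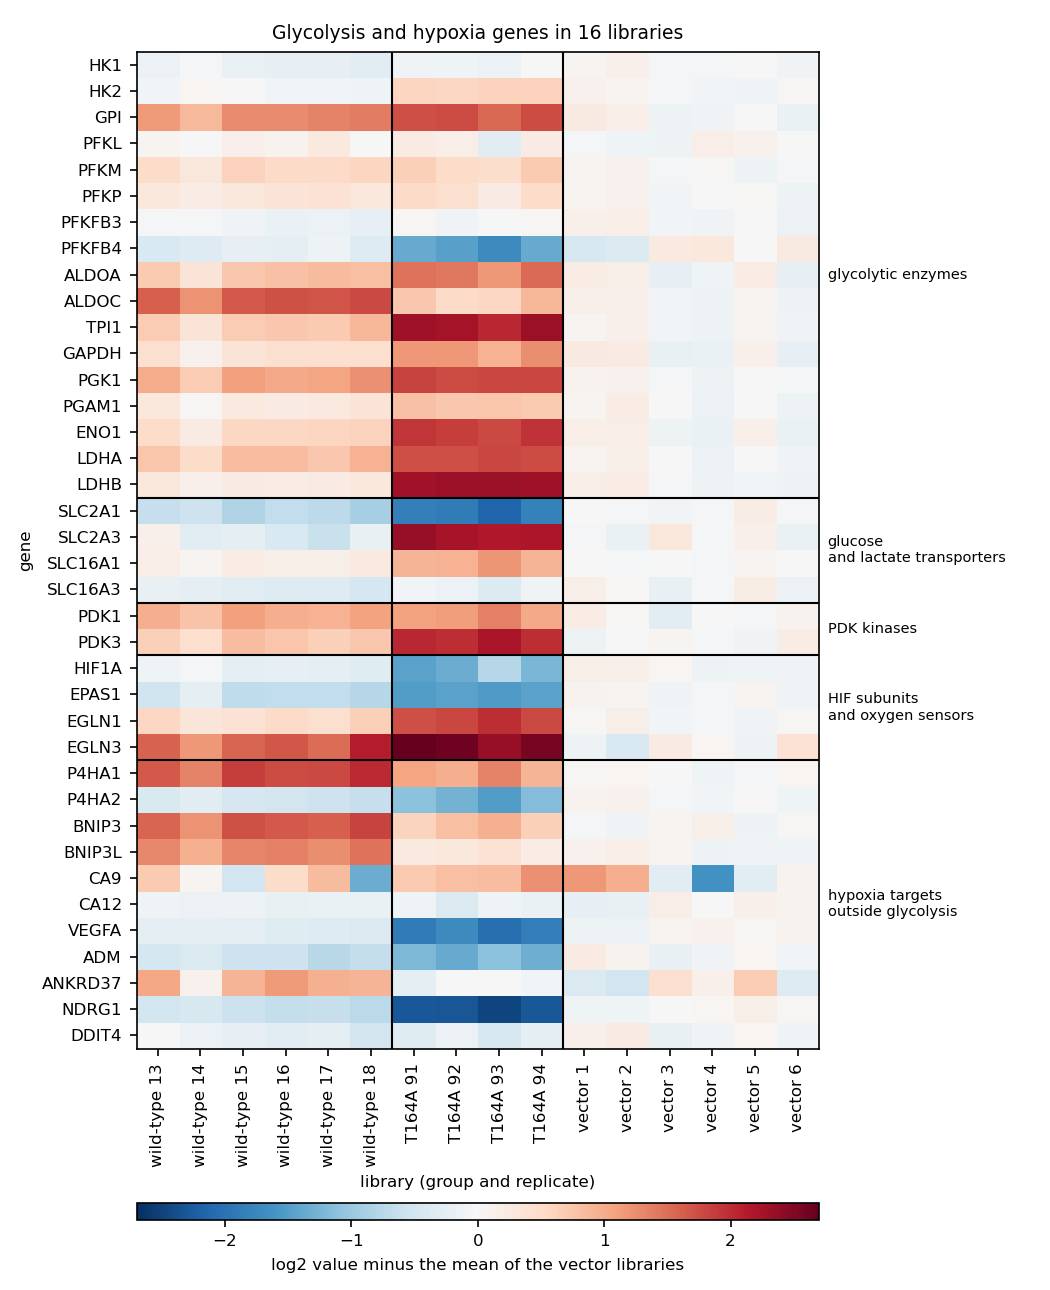
Log2 value of each of 38 genes (rows, grouped by role) in each of 16 libraries (columns) minus the mean of the vector libraries, with red for higher and blue for lower. Most enzyme rows are red in the 6 wild-type columns and darker red in the 4 T164A columns, while SLC2A1, EPAS1, VEGFA and NDRG1 are blue in both.

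Enzymes were called higher more often than lower against the vector, and the 11 listed targets outside glycolysis were mixed. Of 17 enzymes, 12 were called higher and 2 lower in wild-type than in vector libraries, with a median difference of 0.38. Of 11 targets outside glycolysis, 4 were called higher and 5 lower, with a median of -0.16. In T164A libraries 13 enzymes were called higher and 1 lower than in vector libraries (median 0.75), and 3 of the other targets were called higher and 6 lower (median -0.20). Set against T164A libraries, wild-type libraries had 10 enzymes lower and 2 higher (median -0.51) and 8 of the other targets higher and 0 lower (median 0.79). These class medians are descriptions without a test. The sign of the median of the other targets in wild-type libraries depended on membership, being 0.044 once EGLN1 and EGLN3 were counted with them. A further 39 hypoxia genes had medians of the other sign, 0.37 in T164A minus vector and -0.27 in wild type minus T164A (0.36 and -0.14 with group means below 3 reads set to that level), with 15 higher and 20 lower in wild-type than in T164A libraries.

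**Figure D2:**
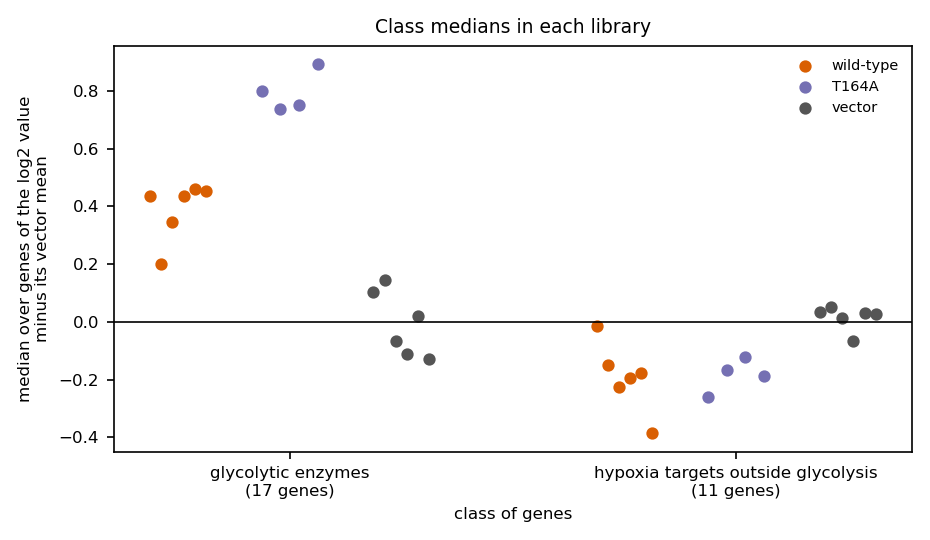
Median over the genes of a class of the log2 value minus its vector mean, 1 point per library, for 17 glycolytic enzymes and 11 hypoxia targets outside glycolysis. Enzyme medians lie at 0.20 to 0.46 in wild-type, 0.74 to 0.89 in T164A and -0.13 to 0.14 in vector libraries, and target medians at -0.39 to -0.02 in wild-type, -0.26 to -0.12 in T164A and -0.07 to 0.05 in vector libraries.

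Promoters are shown for 6 members called in both comparisons with the vector, 4 of them higher and 2 lower there. They were picked without a fixed rule from 20 members called higher in both comparisons and 10 called lower in both. Matches were not counted by direction of change over the set, so these 6 do not show whether the letters follow direction. Each sequence is the 250 bases before the annotated start, taken from RefSeq promoters on build GRCh38.p14 and read along the gene's strand. LDHA lies at chr11:18394313-18394562 (+ strand, the first of 2 listed starts), P4HA1 at chr10:73096867-73097116 (- strand), BNIP3 at chr10:131981924-131982173 (- strand), EGLN3 at chr14:33951075-33951324 (- strand), SLC2A1 at chr1:42958869-42959118 (- strand) and ADM at chr11:10304823-10305072 (+ strand). Capitals mark matches on either strand to ACGTG or GCGTG, the core letters of the element that HIF binds; CACGTG matches ACGTG on both strands.
LDHA: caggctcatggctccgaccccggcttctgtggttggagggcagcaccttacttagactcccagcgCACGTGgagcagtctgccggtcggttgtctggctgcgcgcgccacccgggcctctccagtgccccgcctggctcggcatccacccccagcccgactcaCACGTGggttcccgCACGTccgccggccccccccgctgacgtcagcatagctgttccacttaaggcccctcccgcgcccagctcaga
P4HA1: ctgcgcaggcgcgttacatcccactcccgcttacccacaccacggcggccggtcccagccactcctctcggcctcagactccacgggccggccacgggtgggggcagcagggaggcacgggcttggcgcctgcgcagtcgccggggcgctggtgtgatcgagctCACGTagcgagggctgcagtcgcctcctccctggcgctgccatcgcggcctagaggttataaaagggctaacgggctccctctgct
BNIP3: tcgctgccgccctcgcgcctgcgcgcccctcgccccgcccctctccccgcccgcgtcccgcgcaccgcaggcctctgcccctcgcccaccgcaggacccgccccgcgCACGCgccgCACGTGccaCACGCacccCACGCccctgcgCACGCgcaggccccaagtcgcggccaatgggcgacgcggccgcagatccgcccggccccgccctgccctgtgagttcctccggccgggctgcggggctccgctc
EGLN3: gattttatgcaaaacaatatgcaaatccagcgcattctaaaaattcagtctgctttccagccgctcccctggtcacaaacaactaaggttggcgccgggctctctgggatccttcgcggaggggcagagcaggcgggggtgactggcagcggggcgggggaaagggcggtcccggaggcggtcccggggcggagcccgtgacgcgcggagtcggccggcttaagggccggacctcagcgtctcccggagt
SLC2A1: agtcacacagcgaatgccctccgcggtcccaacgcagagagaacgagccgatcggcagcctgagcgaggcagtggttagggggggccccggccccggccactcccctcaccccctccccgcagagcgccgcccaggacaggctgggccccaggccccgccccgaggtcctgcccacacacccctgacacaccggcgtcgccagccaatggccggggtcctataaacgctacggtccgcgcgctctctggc
ADM: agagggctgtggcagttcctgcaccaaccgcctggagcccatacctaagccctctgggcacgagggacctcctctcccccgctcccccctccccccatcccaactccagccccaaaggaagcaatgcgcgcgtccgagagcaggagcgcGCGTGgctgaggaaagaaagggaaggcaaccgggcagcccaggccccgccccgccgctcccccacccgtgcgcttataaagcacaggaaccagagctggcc

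LDHA held 5 matches to ACGTG, P4HA1 held 1, and BNIP3 held 2 to ACGTG and 4 to GCGTG. EGLN3 and SLC2A1 held none in this window, and ADM held 1 to GCGTG. In all, 33 of the 38 genes had an entry, with 60 starts, and SLC2A3, SLC16A1, BNIP3L, VEGFA and NDRG1 had none. ACGTG stood in 23 of those 60 windows (38.3%), against 18.5% of all 35116 promoters in the table. By class it stood in 14 of 38 enzyme windows (36.8%) and 5 of 8 windows of the other targets (62.5%). PDK genes had it in 2 of 3 windows (66.7%). It stood in 1 of 6 transporter windows (16.7%) and 1 of 5 windows of HIF subunits and sensors (20%). GCGTG stood in 35% of the 60 windows, against 32.2% of all promoters. Windows of 1 gene overlap, so they are not independent, and a match describes letters and not binding.

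Glucose enters these cells through facilitative transporters. SLC2A1 encodes GLUT1, the widespread transporter and a classical HIF target. Its lowest, median and highest values were 12.37, 12.58 and 12.71 in wild-type libraries, 11.42, 11.38, 11.12 and 11.44 were measured in T164A replicates 91 to 94, and the vector libraries had 13.21, 13.22 and 13.47. The 3 groups did not overlap, and T164A libraries were the lowest. SLC2A1 fell by 0.71 (SE 0.07, limma adjusted p = 2.07e-09) in wild-type libraries and fell by 1.93 (SE 0.07, limma adjusted p = 8.52e-18) in T164A libraries. SLC2A3, the high-affinity GLUT3 typical of neurons, had 5.03, 5.33 and 5.76 as lowest, median and highest wild-type values, 7.98, 7.85, 7.78 and 7.81 in T164A replicates 91 to 94, and 5.43, 5.58 and 5.93 as lowest, median and highest vector values. All T164A libraries lay above all others, while wild-type and vector libraries overlapped. The difference was 2.24 (SE 0.15, limma adjusted p = 7.93e-13) in T164A libraries, and -0.27 (SE 0.14, adjusted p = 0.105) in wild-type libraries. The wild-type difference was called without wild-type replicate 13 (-0.36, adjusted p = 0.031) and under quantile normalization (-0.61, adjusted p = 0.00044). SLC2A3 has a near-identical relative, SLC2A14, so its values are uncertain where reads could be split between them.

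Hexokinase, which traps glucose as its phosphate, showed little change in wild-type libraries. HK1, the constitutive form bound to mitochondria, averaged 11.97 ± 0.09 in wild-type (n = 6), 12.07 ± 0.07 in T164A (n = 4) and 12.16 ± 0.09 in vector libraries (n = 6). HK1 was called in wild-type libraries (-0.19, SE 0.05, limma adjusted p = 0.00519) and not in T164A libraries (-0.09, adjusted p = 0.216). The wild-type call was lost without vector replicates 1 and 2 (-0.13, adjusted p = 0.0545) and under quantile normalization (-0.10, adjusted p = 0.0977). HK2, the inducible form and a HIF target, averaged 10.68 ± 0.06 in wild-type (n = 6), 11.32 ± 0.03 in T164A (n = 4) and 10.73 ± 0.09 in vector libraries (n = 6). It rose by 0.59 (SE 0.05, limma adjusted p = 4.15e-10) in T164A libraries, with no overlap, and differed by -0.05 (SE 0.05, adjusted p = 0.434) in wild-type libraries. GPI, which makes fructose phosphate, rose by 1.22 (SE 0.08, limma adjusted p = 2.94e-12) in wild-type and by 1.70 (SE 0.09, limma adjusted p = 5.21e-15) in T164A libraries.

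The phosphofructokinases catalyse the committed step, and their subunit genes moved unequally. PFKM, the muscle subunit, rose by 0.51 (SE 0.06) in wild-type and 0.58 (SE 0.07) in T164A libraries, and PFKP, the platelet subunit, by 0.30 (SE 0.06) in wild-type and 0.42 (SE 0.06) in T164A libraries. PFKL, the liver subunit, was not called, at 0.10 (SE 0.08) in wild-type and 0.08 (SE 0.09) in T164A libraries. Without T164A replicate 93, which had the lowest PFKL value of its group (11.15, against 11.62 to 11.67), the T164A difference was called (0.21, limma adjusted p = 0.0101). PFKFB3 and PFKFB4 make fructose bisphosphate that activates phosphofructokinase, and both are known HIF targets. PFKFB4 fell by 1.48 (SE 0.12, limma adjusted p = 2.84e-11) in T164A libraries, to 8.36 ± 0.17 (n = 4), against 9.84 ± 0.33 in vector libraries (n = 6). In wild-type libraries it averaged 9.55 ± 0.10 (n = 6), a difference of -0.28 (SE 0.11, limma adjusted p = 0.0331). That call was lost without vector replicate 3, 4, 5 or 6 or wild-type replicate 13, 14 or 18 (-0.22 to -0.28, adjusted p = 0.0527 to 0.101). Vector replicates 1 and 2 had the lowest PFKFB4 values of their group (9.40 and 9.47, against 9.86 to 10.13), and without both the difference was -0.49 (adjusted p = 2.6e-05). PFKFB3 was not called, at -0.12 (SE 0.06) in wild-type libraries and 0.00 (SE 0.06) in T164A libraries; without vector replicate 6 the wild-type difference was -0.15 (adjusted p = 0.0419).

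The 9 analysed enzyme genes of the set from the aldolases to lactate dehydrogenase were called higher in each comparison with the vector. PKM, the pyruvate kinase gene of this stretch, was not analysed. Outside the set, the enolase gene ENO2 rose by 0.20 (SE 0.07, limma adjusted p = 0.0162) in wild-type libraries and fell by 0.61 (SE 0.08, limma adjusted p = 9.19e-08) in T164A libraries, a gene named after its values were seen. TPI1, which interconverts the triose phosphates, had 11.34, 11.68 and 11.88 as lowest, median and highest wild-type values, 13.28, 13.23, 13.01 and 13.29 in T164A replicates 91 to 94, and 10.85, 10.99 and 11.13 as lowest, median and highest vector values. The groups were fully separate. TPI1 rose by 0.67 (SE 0.07, limma adjusted p = 2.34e-08) in wild-type and by 2.22 (SE 0.08, limma adjusted p = 3.36e-18) in T164A libraries. ENO1, the enolase that forms phosphoenolpyruvate, had 13.30, 13.63 and 13.69 as lowest, median and highest wild-type values, 15.01, 14.94, 14.85 and 15.03 in T164A replicates 91 to 94, and 12.89, 13.08 and 13.26 in vector libraries. Wild-type replicate 14 was the lowest of its group and lay just above the highest vector library. ENO1 rose by 0.51 (SE 0.08, limma adjusted p = 4.88e-06) in wild-type and 1.88 (SE 0.09, limma adjusted p = 2.74e-16) in T164A libraries.

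The remaining analysed enzymes of these steps moved the same way by different amounts. ALDOA, the main aldolase, rose by 0.71 (SE 0.09) in wild-type and 1.40 (SE 0.10) in T164A libraries. ALDOC, the aldolase best known from brain, was the exception in rank. It averaged 9.87 ± 0.21 in wild-type (n = 6), 8.92 ± 0.18 in T164A (n = 4) and 8.25 ± 0.13 in vector libraries (n = 6), and wild-type exceeded T164A libraries by 0.95 (SE 0.10, limma adjusted p = 3.87e-09). GAPDH, often used as a reference gene, rose by 0.38 (SE 0.08, limma adjusted p = 0.000647) in wild-type and by 1.14 (SE 0.09, limma adjusted p = 5.26e-11) in T164A libraries. PGK1, which makes the first ATP of the pathway, rose by 1.02 (SE 0.07) in wild-type and 1.79 (SE 0.08) in T164A libraries, and the mutase PGAM1 by 0.24 (SE 0.06) in wild-type and 0.75 (SE 0.07) in T164A libraries. Several of these genes, GAPDH, PGAM1 and TPI1 among them, have processed pseudogenes, and no source used here says how the authors' counting treated them or whether it used strand.

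**Figure D3:**
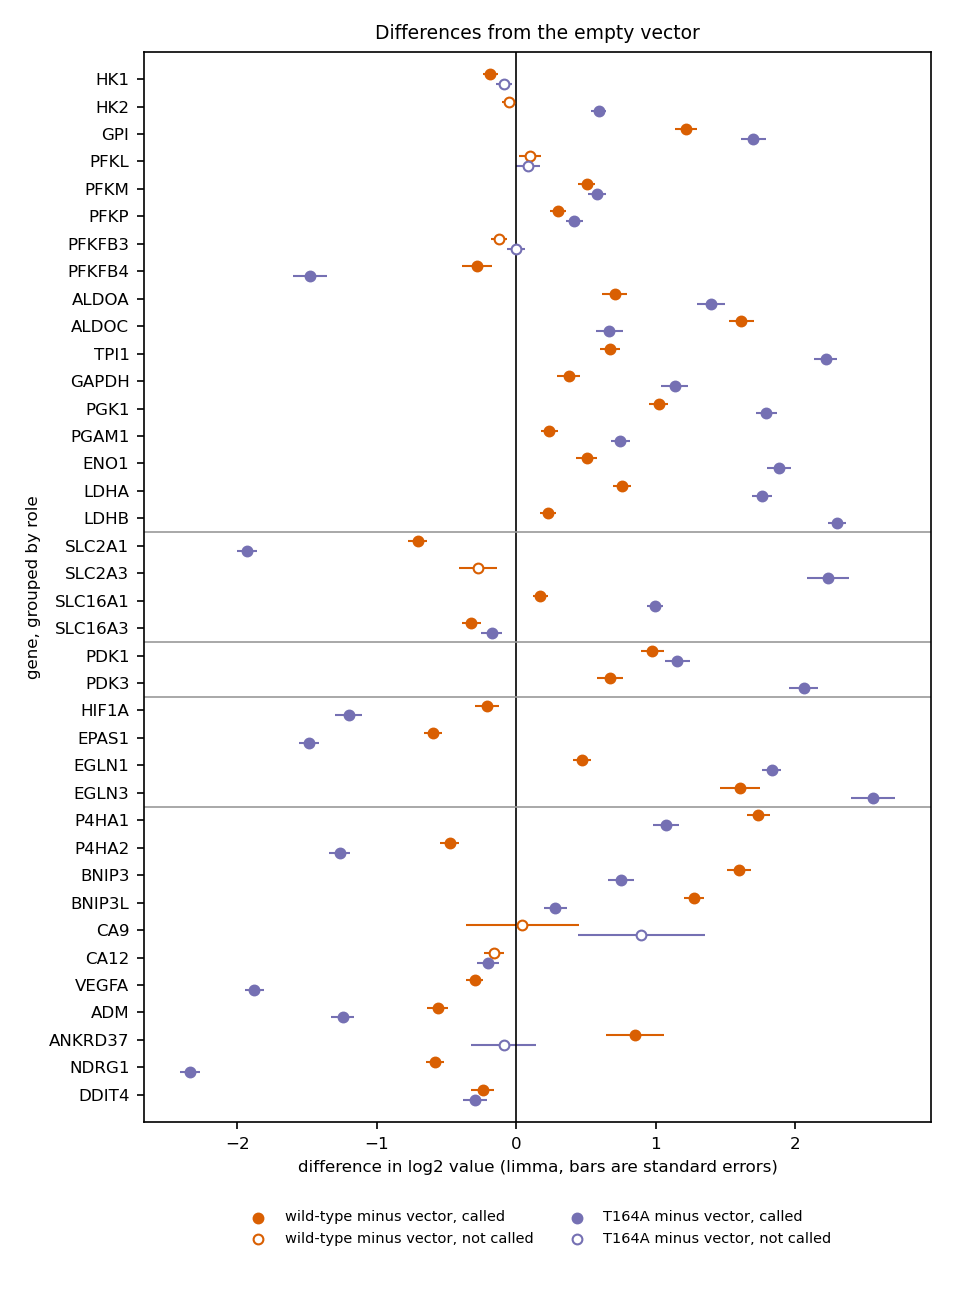
Difference in log2 value from the vector libraries for 38 genes, grouped by role, in wild-type (orange) and T164A (purple) libraries. Points are limma differences, bars their standard errors, and open points were not called; LDHB, SLC2A3 and EGLN3 lie furthest right in T164A libraries and NDRG1 furthest left.

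At the exit of glycolysis, lactate dehydrogenase subunits separated the 2 constructs. LDHA, the subunit that favours lactate formation, averaged 12.92 ± 0.15 in wild-type (n = 6), 13.93 ± 0.03 in T164A (n = 4) and 12.16 ± 0.11 in vector libraries (n = 6). It rose by 0.76 (SE 0.06, limma adjusted p = 3.56e-10) in wild-type and by 1.76 (SE 0.07, limma adjusted p = 3.1e-17) in T164A libraries. LDHB, the subunit that favours the return to pyruvate and is not a classical HIF target, had 11.89, 11.98 and 12.05 as lowest, median and highest wild-type values, 14.02, 14.06, 14.09 and 14.05 in T164A replicates 91 to 94, and 11.62, 11.70 and 11.96 in vector libraries. All T164A libraries stood far above every other library, and wild-type and vector libraries overlapped. LDHB rose by 2.30 (SE 0.07, limma adjusted p = 3.63e-20) in T164A libraries and by 0.23 (SE 0.06, limma adjusted p = 0.0025) in wild-type libraries.

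Lactate leaves or enters cells through the SLC16A carriers. SLC16A1, or MCT1, had 11.73, 11.83 and 11.91 as lowest, median and highest wild-type values, 12.58, 12.59, 12.83 and 12.57 in T164A replicates 91 to 94, and 11.60, 11.65 and 11.72 in vector libraries. The groups did not overlap, although wild-type and vector libraries nearly met. SLC16A1 rose by 0.17 (SE 0.05, limma adjusted p = 0.00645) in wild-type and 0.99 (SE 0.06, limma adjusted p = 3.03e-14) in T164A libraries. SLC16A3, or MCT4, the lactate exporter induced by HIF, fell by 0.32 (SE 0.07, limma adjusted p = 0.000386) in wild-type libraries. In T164A libraries it was lower by 0.18 (SE 0.08, limma adjusted p = 0.0497), a call lost on leaving out vector replicate 1, 2, 4 or 5, wild-type replicate 13, 15, 16 or 17, or T164A replicate 92 or 93 (adjusted p = 0.052 to 0.216). Without T164A replicate 93 that difference was -0.11.

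The PDK kinases switch off pyruvate dehydrogenase and so limit the further use of pyruvate in the mitochondria. PDK1, a HIF target, had 8.77, 8.99 and 9.12 as lowest, median and highest wild-type values, 9.10, 9.14, 9.37 and 9.04 in T164A replicates 91 to 94, and 7.72, 8.02 and 8.21 in vector libraries. Wild-type and T164A libraries overlapped, and both lay above all vector libraries. PDK1 rose by 0.98 (SE 0.08, limma adjusted p = 2.25e-10) in wild-type and 1.15 (SE 0.09, limma adjusted p = 1.34e-11) in T164A libraries, and the direct difference was -0.18 (SE 0.09, adjusted p = 0.0917). PDK3 had 6.74, 6.97 and 7.11 as lowest, median and highest wild-type values, 8.32, 8.28, 8.49 and 8.28 in T164A replicates 91 to 94, and 6.14, 6.27 and 6.48 in vector libraries. It rose by 0.67 (SE 0.09, limma adjusted p = 1.37e-06) in wild-type and by 2.06 (SE 0.10, limma adjusted p = 2.39e-15) in T164A libraries, with no overlap between groups.

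RNA of both HIF alpha subunits was lower where many glycolytic genes were higher. HIF1A had 11.87, 11.95 and 12.16 as lowest, median and highest wild-type values, 10.74, 10.86, 11.42 and 10.97 in T164A replicates 91 to 94, and 12.05, 12.17 and 12.35 in vector libraries. T164A replicate 93 was the highest of its group, and all 4 were below every other library. HIF1A fell by 1.201 (SE 0.09, limma adjusted p = 1.7e-11) in T164A libraries. The wild-type difference was -0.21 (SE 0.08, limma adjusted p = 0.0464), and that call was lost on leaving out vector replicate 1, 2 or 3, wild-type replicate 15, 16, 17 or 18, or T164A replicate 94 (-0.18 to -0.21, adjusted p = 0.0529 to 0.109). Without vector replicates 1 and 2 together it was -0.13 (adjusted p = 0.267). EPAS1, which encodes HIF-2 alpha, had 11.85, 11.95 and 12.34 as lowest, median and highest wild-type values, 11.10, 11.17, 11.08 and 11.16 in T164A replicates 91 to 94, and 12.51, 12.62 and 12.70 in vector libraries. The 3 groups did not overlap. EPAS1 fell by 0.60 (SE 0.07, limma adjusted p = 4.11e-08) in wild-type and fell by 1.48 (SE 0.07, limma adjusted p = 1.58e-15) in T164A libraries.

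EGLN1 and EGLN3, the genes of HIF hydroxylases in the set, were higher in wild-type and T164A libraries than in the vector libraries. HIF1AN, the asparagine hydroxylase of HIF and outside the set, differed by -0.28 (SE 0.06, limma adjusted p = 0.000611) in wild-type and by 0.48 (SE 0.07, limma adjusted p = 1.46e-06) in T164A libraries, and was named after its values were seen. EGLN1, or PHD2, the main hydroxylase of HIF, had 9.32, 9.48 and 9.64 as lowest, median and highest wild-type values, 10.74, 10.82, 10.997 and 10.80 in T164A replicates 91 to 94, and 8.91, 8.997 and 9.16 in vector libraries. It rose by 0.47 (SE 0.06, limma adjusted p = 8.18e-07) in wild-type and 1.83 (SE 0.07, limma adjusted p = 1.17e-17) in T164A libraries. EGLN3, or PHD3, itself a strongly induced HIF target, had 6.64, 7.05 and 7.59 as lowest, median and highest wild-type values, 8.18, 8.10, 7.83 and 8.03 in T164A replicates 91 to 94, and 5.08, 5.44 and 5.86 in vector libraries. No groups overlapped for either gene. EGLN3 rose by 1.60 (SE 0.14, limma adjusted p = 1.01e-09) in wild-type and by 2.56 (SE 0.16, limma adjusted p = 1.71e-13) in T164A libraries, the largest T164A difference of the 38 genes.

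**Figure D4:**
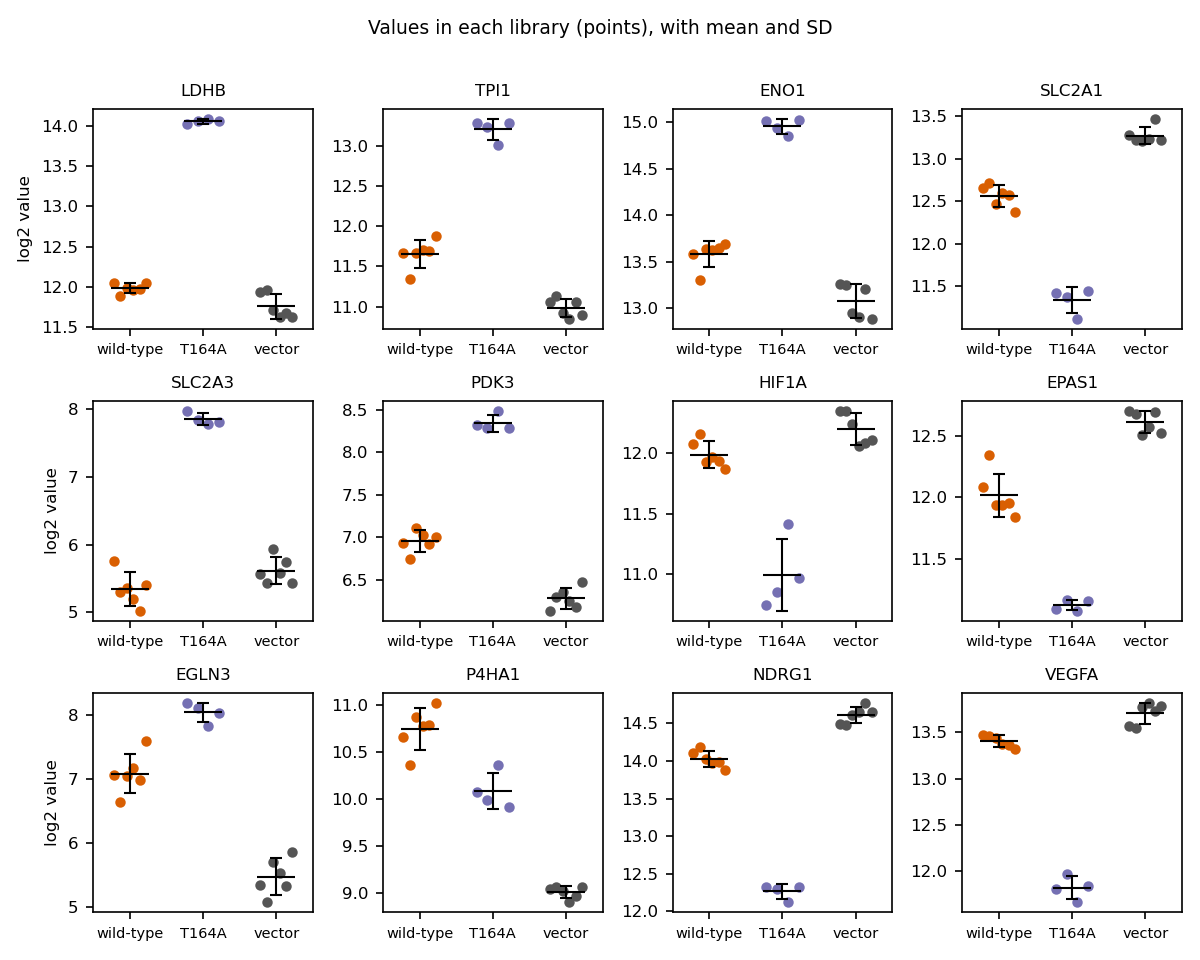
Log2 values of 12 genes in each library, as points by group, with mean and SD (bars); each panel has its own axis. T164A libraries are highest for LDHB, SLC2A3 and EGLN3 and lowest for SLC2A1, NDRG1 and VEGFA, and wild-type libraries are highest for P4HA1.

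Among targets outside glycolysis, collagen prolyl hydroxylase subunits parted. P4HA1 had 10.36, 10.78 and 11.02 as lowest, median and highest wild-type values, 10.07, 9.99, 10.36 and 9.92 in T164A replicates 91 to 94, and 8.90, 9.03 and 9.06 in vector libraries. All wild-type and T164A libraries lay above all vector libraries. P4HA1 rose by 1.74 (SE 0.08, limma adjusted p = 7.1e-15) in wild-type libraries, the largest wild-type difference of the 38 genes, and by 1.07 (SE 0.09, limma adjusted p = 1.41e-10) in T164A libraries. P4HA2, which encodes the other alpha subunit, averaged 11.16 ± 0.12 in wild-type (n = 6), 10.38 ± 0.18 in T164A (n = 4) and 11.64 ± 0.09 in vector libraries (n = 6). It fell by 0.48 (SE 0.07, limma adjusted p = 1.48e-06) in wild-type libraries and fell by 1.27 (SE 0.07, limma adjusted p = 4.8e-14) in T164A libraries.

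BNIP3 and BNIP3L, receptors that mark mitochondria for removal, were highest in wild-type libraries. BNIP3 averaged 10.40 ± 0.21 in wild-type (n = 6), 9.55 ± 0.17 in T164A (n = 4) and 8.80 ± 0.11 in vector libraries (n = 6). Wild-type exceeded T164A libraries by 0.84 (SE 0.09, limma adjusted p = 1.29e-08) and vector libraries by 1.60 (SE 0.08, limma adjusted p = 3.24e-14). BNIP3L averaged 10.74 ± 0.17 in wild-type (n = 6), 9.75 ± 0.09 in T164A (n = 4) and 9.46 ± 0.14 in vector libraries (n = 6). Its T164A difference from the vector was 0.28 (SE 0.08, limma adjusted p = 0.00351), and 0.13 (adjusted p = 0.161) under quantile normalization. ANKRD37, a small ankyrin protein gene that HIF induces, averaged 6.09 ± 0.38 in wild-type (n = 6), 5.15 ± 0.12 in T164A (n = 4) and 5.24 ± 0.50 in vector libraries (n = 6). It was called in wild-type libraries (0.85, SE 0.21, limma adjusted p = 0.0013), although wild-type replicate 14, at 5.35, lay among the vector libraries. With close libraries averaged the difference was 0.45 (adjusted p = 0.394). In T164A libraries it differed by -0.09 (adjusted p = 0.764), and by -0.78 (adjusted p = 0.00326) under quantile normalization.

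Secreted and stress-linked targets fell. VEGFA, the growth factor for blood vessels, had 13.32, 13.41 and 13.47 as lowest, median and highest wild-type values, 11.82, 11.97, 11.67 and 11.85 in T164A replicates 91 to 94, and 13.54, 13.75 and 13.81 in vector libraries. Wild-type libraries lay just below the lowest vector library and T164A libraries far below. VEGFA fell by 0.30 (SE 0.06, limma adjusted p = 0.000195) in wild-type and fell by 1.88 (SE 0.07, limma adjusted p = 2.63e-18) in T164A libraries. NDRG1, a hypoxia- and differentiation-linked gene, had 13.87, 14.01 and 14.18 as lowest, median and highest wild-type values, 12.33, 12.30, 12.12 and 12.32 in T164A replicates 91 to 94, and 14.48, 14.63 and 14.77 in vector libraries. Here too the groups were separate, and NDRG1 fell by 0.58 (SE 0.06, limma adjusted p = 3.09e-08) in wild-type and fell by 2.34 (SE 0.07, limma adjusted p = 1.04e-19) in T164A libraries. ADM, the vasodilator adrenomedullin, fell by 0.56 (SE 0.08) in wild-type libraries and fell by 1.24 (SE 0.08) in T164A libraries. DDIT4, an inhibitor of mTORC1, fell by 0.24 (SE 0.08) in wild-type libraries and fell by 0.30 (SE 0.09) in T164A libraries, with overlap between groups in both. The wild-type call of DDIT4 was lost under quantile normalization (-0.02, adjusted p = 0.816), with close libraries averaged (-0.24, adjusted p = 0.288), without vector replicates 1 and 2 (-0.15, adjusted p = 0.141) and at a minimum fold of 1.2.

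Of the 11 falls in wild-type libraries, SLC2A1 (-0.71), EPAS1 (-0.60), NDRG1 (-0.58), ADM (-0.56) and P4HA2 (-0.48) lay within the range of the 13 basal markers, -0.79 to -0.34 with a median of -0.60. SLC16A3 (-0.32), VEGFA (-0.30), PFKFB4 (-0.28), DDIT4 (-0.24), HIF1A (-0.21) and HK1 (-0.19) fell by less than any basal marker. The part of basal cells in these falls, and of luminal cells in the wild-type rises, was not tested. Wild-type replicate 14, the library with the lowest luminal sum, was the wild-type library nearest to the vector mean for 28 of the 32 called genes, and for 64.3% of all 9183 called symbols. In T164A libraries, the 11 falls of the set ran over -2.34 (NDRG1), -1.93 (SLC2A1), -1.88 (VEGFA), -1.48 (PFKFB4 and EPAS1), -1.27 (P4HA2), -1.24 (ADM), -1.201 (HIF1A), -0.30 (DDIT4), -0.20 (CA12) and -0.18 (SLC16A3). Basal markers there had 10 lower and 1 higher, ITGB4 at 0.69, with KRT14 and COL17A1 not called and a median of -1.67, and general epithelial genes had a median of -1.97. Their part in the result was not tested.

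The carbonic anhydrases, which handle acid outside the cell, gave calls that depended on single libraries. CA9, a textbook marker of hypoxia, had 2.25, 3.87 and 4.45 as lowest, median and highest wild-type values, 4.30, 4.41, 4.42 and 4.83 in T164A replicates 91 to 94, and 1.96, 3.49 and 4.76 in vector libraries. Wild-type replicate 18 and vector replicate 4 lay below the level of 3 reads in those libraries, 2.42 and 2.19, and the other libraries above it. The CA9 difference was 0.04 (SE 0.41, limma adjusted p = 0.949) in wild-type and 0.90 (SE 0.45, adjusted p = 0.0881) in T164A libraries. The T164A difference was called without vector replicate 1 (1.13, adjusted p = 0.0307) or 2 (1.09, adjusted p = 0.0407), which had the highest vector values, without both (1.44, adjusted p = 0.00636), and with array weights (1.04, adjusted p = 0.0279). CA12 differed by -0.16 (SE 0.07, limma adjusted p = 0.0706) in wild-type libraries, called without vector replicate 1 (adjusted p = 0.0214) or 2 (adjusted p = 0.0267) and without both (-0.26, adjusted p = 0.00264). In T164A libraries it was lower by 0.20 (SE 0.08, adjusted p = 0.0285), a call lost without vector replicate 3, 5 or 6 or T164A replicate 92 (adjusted p = 0.0594 to 0.157).

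Direct comparison of the constructs gave the size of their differences. Wild-type libraries differed from T164A libraries in SLC2A3 by -2.51 (SE 0.15), LDHB by -2.07 (SE 0.07), TPI1 by -1.54 (SE 0.08), PDK3 by -1.39 (SE 0.10), ENO1 by -1.38 (SE 0.09) and EGLN1 by -1.36 (SE 0.07). They were higher in NDRG1 by 1.76 (SE 0.07), VEGFA by 1.58 (SE 0.07), SLC2A1 by 1.22 (SE 0.07), PFKFB4 by 1.196 (SE 0.12), BNIP3L by 0.99 (SE 0.08) and HIF1A by 0.99 (SE 0.09). The limma adjusted p of these 12 differences was 1.97e-09 or smaller. Not called were HK1, PFKL, PFKM, PFKP, PFKFB3, SLC16A3, PDK1, CA9, CA12 and DDIT4. PFKP (-0.18, adjusted p = 0.00752) and SLC16A3 (-0.21, adjusted p = 0.0198) were called once T164A replicate 93 was left out.

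Further genes of glucose metabolism were followed outside the set. Among 34 measured further genes of glucose metabolism, wild-type libraries had 14 called higher (41.2%) and 6 lower (17.6%), and T164A libraries 17 higher (50%) and 7 lower (20.6%), than vector libraries. The all-symbol shares were 21% higher and 24.5% lower in wild-type and 37.1% higher and 27.2% lower in T164A libraries. Of 13830 symbols with a mean of at least 3, wild-type libraries had 3886 higher and 5023 lower. T164A libraries had 6471 of them higher and 5087 lower. The insulin-responsive transporter SLC2A4 averaged 6.198 in wild-type, 6.30 in T164A and 2.68 in vector libraries, and the transporter SLC2A12 averaged 9.38 in wild-type, 8.57 in T164A and 6.39 in vector libraries. BPGM, which makes the haemoglobin ligand bisphosphoglycerate, rose by 1.21 (SE 0.11) in wild-type and 2.54 (SE 0.12) in T164A libraries, and the dehydrogenase subunit gene PDHB by 1.08 (SE 0.07) in wild-type and 2.05 (SE 0.08) in T164A libraries. PGM1, which links glycogen to glycolysis, rose by 0.77 (SE 0.09) in wild-type and 1.995 (SE 0.10) in T164A libraries. LDHC, the testis form, was lower in wild-type libraries by at least 1.14, ending below 3 reads. In T164A libraries LDHC rose by 2.54 (SE 0.65), and PDK4 rose by at least 3.51 from a vector mean below 3 reads.

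Among 39 measured further hypoxia genes, wild-type libraries had 14 called higher (35.9%) and 15 lower (38.5%) than vector libraries. T164A libraries had 22 higher (56.4%) and 11 lower (28.2%). The all-symbol shares, and the counts among symbols with a mean of at least 3, are those given above. In T164A libraries the further hypoxia genes had more called higher than lower, where the 11 targets of the set had 3 higher and 6 lower. ARNT2, a partner that HIF alpha can bind in place of ARNT, averaged 7.22 in wild-type, 8.26 in T164A and 4.33 in vector libraries, rising by 2.89 (SE 0.20) in wild-type and 3.92 (SE 0.22) in T164A libraries. FAM13A rose by 1.02 (SE 0.08) in wild-type and 1.29 (SE 0.09) in T164A libraries. The mitochondrial kinase AK4 rose by 0.94 (SE 0.07) in wild-type and 0.28 (SE 0.08) in T164A libraries. The collagen hydroxylase PLOD1 rose by 0.89 (SE 0.08) in wild-type and 0.27 (SE 0.09) in T164A libraries. FAM162A rose by 0.74 (SE 0.07) in wild-type and 0.36 (SE 0.08) in T164A libraries. PPP1R3C, a glycogen regulator, fell by 0.74 (SE 0.10) in wild-type libraries and fell by 1.01 (SE 0.12) in T164A libraries. In T164A libraries the chemokine receptor CXCR4 rose by at least 4.37 from a vector mean below 3 reads. BHLHE41 rose by 2.17 (SE 0.23), PPFIA4 by 2.08 (SE 0.15) and the haem oxygenase HMOX1 by 1.80 (SE 0.12), while TMEM45A fell by 2.05 (SE 0.10). The wild-type differences from the vector were -0.59 for BHLHE41, 0.73 for PPFIA4, 0.16 for HMOX1 (not called) and -0.70 for TMEM45A. Set directly against T164A libraries, wild-type libraries were higher in the hexokinase relative HKDC1 (1.40), the ephrin EFNA1 (1.61) and TMEM45A (1.36). The wild-type minus T164A difference was -1.34 for BPGM, -1.58 for the transporter SLC2A10, -1.46 for GPD1L, -1.74 for the collagen cross-linking oxidase LOX, -2.75 for BHLHE41 and -1.64 for HMOX1. LDHC, PDK4 and CXCR4 averaged below 3 reads in wild-type libraries, and with that level in place of the wild-type mean the differences were -3.67 for LDHC, -3.51 for PDK4 and -4.37 for CXCR4, each a lower bound on the size. Apart from HMOX1 in wild-type against vector libraries, all genes named in these comparisons were called by limma.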

How the data were processed

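Libraries were prepared with TruSeq after poly-A selection and sequenced on an Illumina instrument, per the labels' protocols. Build GRCh37 and the tools DESeq, Cufflinks 2.0.2, TopHat2 2.0.4 and CASAVA 1.8.2 appear, without roles or order, in the submitters' processing notes. Expression came as log2 values in a single deposited table of 21594 rows, and no source used here states the transform. Above 11.5, 2 raised to the value, less an offset of 1.89, lies on whole steps (within 0.05) in every library, the form of reads divided by a size factor; from 10 to 10.5 only 8.29% to 11.4% of values do. Whole reads could thus not be had for most genes, so count models were not applied. The steps gave the depths and the mean level of 3 reads, 2.30; it covers counting error only. Depth limits the precision of values near that level.

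Of rows sharing a symbol (1732 rows, 304 symbols), the row with the highest mean was kept. Library pairs within a group differed beyond sampling noise (chi-square per degree of freedom 4.34 to 152 over 547 genes), so each library is 1 replicate; the labels do not say whether libraries are separate cultures, so p-values measure spread that may be technical. All 16 libraries entered 1 limma 3.58.1 model (R 4.3.3, empirical Bayes with variance trend, 13 residual degrees of freedom; two-sided, Benjamini-Hochberg over 20166 symbols, threshold 0.05, no filter), tested on simulated data. Members and lists were chosen with earlier results of these data known. All members are named, with values by library (lowest, median and highest for groups of 6) for up to 3 per role class with the largest difference from the vector and for HIF1A, EPAS1, EGLN3, CA9 and VEGFA; of the further pathway genes, up to 6 called ones per list and comparison with the largest differences and a higher group mean above 3 reads. Of these lists, 34 of 36 and 39 of 41 genes were measured. The level of the gene carried by the constructs is not reported here.

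Alternatives were quantile normalization, a mean of at least 3, the compared groups alone, array weights, no trend, a minimum fold of 1.2, close libraries averaged, wider classes, each library left out, and, chosen after seeing the data, vector replicates 1 and 2 left out together.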

Additional observations from a re-analysis of the deposited data

Results flagged for a closer look

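In 12 of 114 sets of values (38 genes in 3 groups), 1 library stood far from the others of its group by Dixon's test; chance alone gives about 1 in 20. Wild-type replicate 14 accounted for 6. It was low for PFKM (11.03, others 11.22 to 11.34), ALDOA (12.98, others 13.33 to 13.48), ALDOC (9.46, others 9.88 to 10.04), GAPDH (13.46, others 13.68 to 13.80), ENO1 (13.30, others 13.58 to 13.69) and ANKRD37 (5.35, others 6.15 to 6.39).

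T164A replicate 93 accounted for 5. It was low for GPI (12.58, others 12.79), PFKL (11.15, others 11.62 to 11.67) and NDRG1 (12.12, others 12.30 to 12.33), and high for LDHA (13.98, others 13.90 to 13.92) and SLC16A1 (12.83, others 12.57 to 12.59). Vector replicate 5 was high for SLC2A1 (13.47, others 13.21 to 13.28).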

How the results depend on the processing

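No called member changed sign under any alternative run. Quantile normalization moved the median difference of symbols at a mean of 6 or more by -0.17 in T164A minus vector and by 0.14 in wild type minus T164A, and moved the median of the hypoxia targets outside glycolysis to -0.43 in T164A minus vector. A minimum fold of 1.2 and averaging close libraries each left 5 members lower in wild type minus vector, against 11. Members called higher there were 16 at the minimum fold and 14 with averaging, against 21. The minimum fold ended the higher wild-type calls of PFKP, GAPDH, PGAM1, LDHB and SLC16A1. Averaging also gave an enzyme median of 0.24 in wild type minus vector and a target median of 0.62 in wild type minus T164A, and it ended 13 of 32 wild-type calls, those of HK1, PFKP, PFKFB4, GAPDH, PGAM1, ENO1, LDHB, SLC16A1, SLC16A3, HIF1A, VEGFA, ANKRD37 and DDIT4 (7 values in place of 16 libraries), against 1 of 33 T164A calls. Counting transporters and PDK genes with the enzymes, and EGLN genes with the targets, gave a T164A enzyme median of 0.99 and turned the wild-type target median to 0.044. With each library left out in turn, every member count and class median stayed within 1.5 times the main count or within the spread between libraries. In the averaged fit wild-type replicate 14, the library nearest the vector for most called genes, weighed as much as the mean of the other wild-type libraries. No paired analysis was possible because the groups share no replicate numbers. Quantile normalization also ended the wild-type calls of HK1, HIF1A and DDIT4 (-0.10, -0.13 and -0.02, with adjusted p = 0.0977, 0.227 and 0.816). Leaving out vector replicates 1 and 2 together, chosen after seeing the data, ended the wild-type calls of HK1, HIF1A and DDIT4 and the T164A call of SLC16A3 (-0.13, adjusted p = 0.187), and gave calls for CA12 in wild-type and CA9 in T164A libraries. The causes were not tested. At these depths CA9 lay below the level of 3 reads in wild-type replicate 18 and vector replicate 4.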

Other observations

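Further branches of glucose use, chosen after their values were seen, are given as values. Of the pentose phosphate enzymes, PGD rose by 0.34 (SE 0.06) in wild-type and 1.07 (SE 0.06) in T164A libraries, TKT by 0.43 (SE 0.07) in wild-type and 1.09 (SE 0.08) in T164A libraries, and TALDO1 by 0.21 (SE 0.06) in wild-type and 0.68 (SE 0.06) in T164A libraries. Of the pyruvate dehydrogenase complex, the catalytic subunit gene PDHA1 rose by 0.84 (SE 0.05, limma adjusted p = 8.72e-14) in T164A libraries and differed by -0.05 (SE 0.05, adjusted p = 0.386) in wild-type libraries, and DLAT rose by 0.45 (SE 0.06) in wild-type and 1.196 (SE 0.07) in T164A libraries.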
